A study of Rattus norvegicus with 6 samples.

Results

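The contractile genes of smooth muscle and pericytes, 32 in all, were read in the metrial gland of pregnant rats after low oxygen. The genes were chosen by name from a list of smooth muscle and pericyte genes, and each was read through the probe set with the highest mean over all arrays among those that carry its symbol alone. Of the 32, 31 had such a probe set and 30 passed the filter on low signals, out of 14217 genes with a single-symbol probe set. This gland lies in the rat uterine wall behind the placenta, and the samples were whole tissue taken on gestation day 13.5. The ambient group held 3 arrays of tissue from pregnant rats kept at 21% oxygen, and the hypoxia group held 3 arrays from rats kept at 10.5% oxygen between days 6.5 and 13.5. The labels give no strain, genotype, maternal age or fetal sex, nor do they say whether each array stands for a different dam. The spread behind each p-value may therefore be technical.

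Smooth muscle contracts when calcium and calmodulin switch on myosin light chain kinase, which phosphorylates the myosin light chain and lets myosin pull on actin filaments carrying tropomyosin, calponin and caldesmon. Many genes of this machinery are switched on by serum response factor (SRF) with its partner myocardin, through a DNA element called the CArG box. Pericytes are contractile cells that wrap the smallest vessels and share part of this programme. In the metrial gland both cell types sit in the walls of the spiral arteries that feed the placenta, and smooth muscle also forms the muscle layers of the uterus.

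Values are log2 signals, so a difference of 1 is a doubling. All differences are hypoxia minus ambient, and adjusted p-values come from a limma fit over 18625 probe sets with 3 arrays per group, with 0.05 as the threshold. The array medians lay between 6.44 and 6.47. The highest bacterial control, a measure of signal with no rat transcript, reached 5.003. Beta-actin 3' minus 5' signal, a sign of RNA integrity, was 0.534, 0.541 and 0.411 on the ambient arrays and 0.576, 0.770 and 0.662 on the hypoxia arrays, so it was higher on every hypoxia array. The same measure for GAPDH was -0.046, -0.008 and -0.047 in ambient and -0.040, 0.057 and -0.005 in hypoxia, so there the groups overlapped. The part of RNA integrity in the results was not tested.

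Markers listed for smooth muscle and pericytes were read against the filter, which left out the 40% of probe sets with the lowest means. All 8 smooth muscle markers passed the filter, as did 6 of 7 pericyte markers, with Notch3 left out at means of 5.22 in ambient and 5.16 in hypoxia. In whole tissue, fewer cells of a type and less RNA per cell cannot be told apart.

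Sequence windows at the start sites were searched for the CArG box and for the short core bound by hypoxia-inducible factor. RefSeq windows of assembly GRCr8, covering 250 bases before and 50 after the start, were found for 24 of the 32 genes, in 25 windows. No entry was found for Myh11, Tagln, Myl9, Lmod1, Myocd, Pdgfrb, Mcam and Pdlim3. A CArG box, searched by its name as CC, then 6 bases that are each A or T, then GG, lay in 2 of the 25 windows (8.0%), those of Cnn2 and Srf, against 1.64% of all 33469 windows. A CArG box with 1 G or C in its core lay in 1 window (4.0%), that of Acta2, against 8.1% of all windows. The core ACGTG or GCGTG, on either strand, lay in 12 windows (48.0%) against 41.6% of all. Matches are letters in these windows and not measured sites. The windows of Acta2, the smooth muscle actin, and Srf are shown because they hold the element of the contractile programme. That of Cnn2 is shown because this gene ran against the others between arrays, and those of Lmcd1 and Rgs4 because these 2 genes passed the threshold. Capitals mark the CArG box, or the box with 1 G or C, in Acta2 (chr1:241172454-241172753, minus strand), Srf (chr9:21923826-21924125, plus strand) and Cnn2 (chr7:10370263-10370562, minus strand). They mark the 5-base core in Lmcd1 (chr4:146948743-146949042, plus strand, core on the opposite strand) and Rgs4 (chr13:84475835-84476134, minus strand).
Acta2: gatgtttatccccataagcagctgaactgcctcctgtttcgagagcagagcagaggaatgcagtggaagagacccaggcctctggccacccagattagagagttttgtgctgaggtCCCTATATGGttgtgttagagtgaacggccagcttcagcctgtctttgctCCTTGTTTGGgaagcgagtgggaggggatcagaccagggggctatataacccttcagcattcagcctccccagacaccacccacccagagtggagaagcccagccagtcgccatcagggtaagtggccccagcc
Srf: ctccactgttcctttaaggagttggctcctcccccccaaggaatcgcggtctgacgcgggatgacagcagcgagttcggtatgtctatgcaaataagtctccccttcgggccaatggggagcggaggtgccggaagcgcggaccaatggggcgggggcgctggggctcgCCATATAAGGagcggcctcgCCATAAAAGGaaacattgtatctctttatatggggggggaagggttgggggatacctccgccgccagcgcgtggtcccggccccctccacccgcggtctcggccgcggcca
Cnn2: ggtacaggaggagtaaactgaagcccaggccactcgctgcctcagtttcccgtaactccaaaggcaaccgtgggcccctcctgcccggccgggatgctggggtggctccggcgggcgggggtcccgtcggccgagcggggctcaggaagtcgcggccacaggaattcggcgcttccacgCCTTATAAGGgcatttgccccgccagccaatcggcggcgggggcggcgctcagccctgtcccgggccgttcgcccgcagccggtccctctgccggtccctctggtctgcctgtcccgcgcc
Lmcd1: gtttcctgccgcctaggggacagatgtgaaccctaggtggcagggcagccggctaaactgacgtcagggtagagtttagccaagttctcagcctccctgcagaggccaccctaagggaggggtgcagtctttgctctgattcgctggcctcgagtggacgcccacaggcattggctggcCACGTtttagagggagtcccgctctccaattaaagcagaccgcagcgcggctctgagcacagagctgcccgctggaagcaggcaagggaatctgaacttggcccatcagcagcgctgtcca
Rgs4: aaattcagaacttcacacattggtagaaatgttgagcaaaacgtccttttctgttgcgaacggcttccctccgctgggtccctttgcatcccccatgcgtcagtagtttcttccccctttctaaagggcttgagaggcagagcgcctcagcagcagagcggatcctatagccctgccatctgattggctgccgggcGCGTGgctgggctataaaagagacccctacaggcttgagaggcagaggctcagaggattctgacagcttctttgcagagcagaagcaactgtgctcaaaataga
The 2 matches of Acta2 lay 134 to 125 and 84 to 75 bases before the start, and those of Srf 81 to 72 and 61 to 52 bases before it. The match of Cnn2 lay 71 to 62 bases before the start and shared 1 base with a GCGTG on the opposite strand, at 75 to 71 bases. The core of Lmcd1 lay 71 to 67 bases before its start and that of Rgs4 54 to 50 bases before.

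Most of the contractile genes did not differ past the threshold between the oxygen groups, while Lmcd1 and Rgs4 were higher in hypoxia. Of the 30 genes tested, 2 were higher, 0 were lower and 28 did not pass by limma. Over all probe sets, 4.02% were called higher and 1.97% lower. The median difference over the 30 genes was 0.17, or 0.16 without the called genes, beside 0.0034 over all probe sets. This median moved to 0.095 when hypoxia replicate 1 was left out, to 0.11 when ambient replicate 2 or 3 was, and to 0.26 when hypoxia replicate 3 was. With the second brightest probe set, where a gene had one, it was 0.080. In direction, 25 of the 30 differences were above 0, as were 50.8% of all. At an unadjusted p under 0.05 stood 8 of the 30, against 23.7% of all probe sets. The 3 hypoxia arrays lay above all 3 ambient arrays for 5 genes (Lmcd1, Rgs4, Rgs5, Mcam and Cald1) and below them for 0, against 15.8% and 14.1% of all probe sets. The shares called higher, past an unadjusted p of 0.05 and not overlapping upward were near those of the array as a whole, while the share of differences above 0 was larger and no gene lay below. The 95% intervals are for single genes, with no adjustment for their number, and carry only the spread between arrays, which may be technical. For 28 of the 30 genes the interval stayed within 2-fold and for 17 within 1.5-fold. The count of genes called higher was 1 without any 1 array other than hypoxia replicate 3, and 6 without hypoxia replicate 3.

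**Figure D1:**
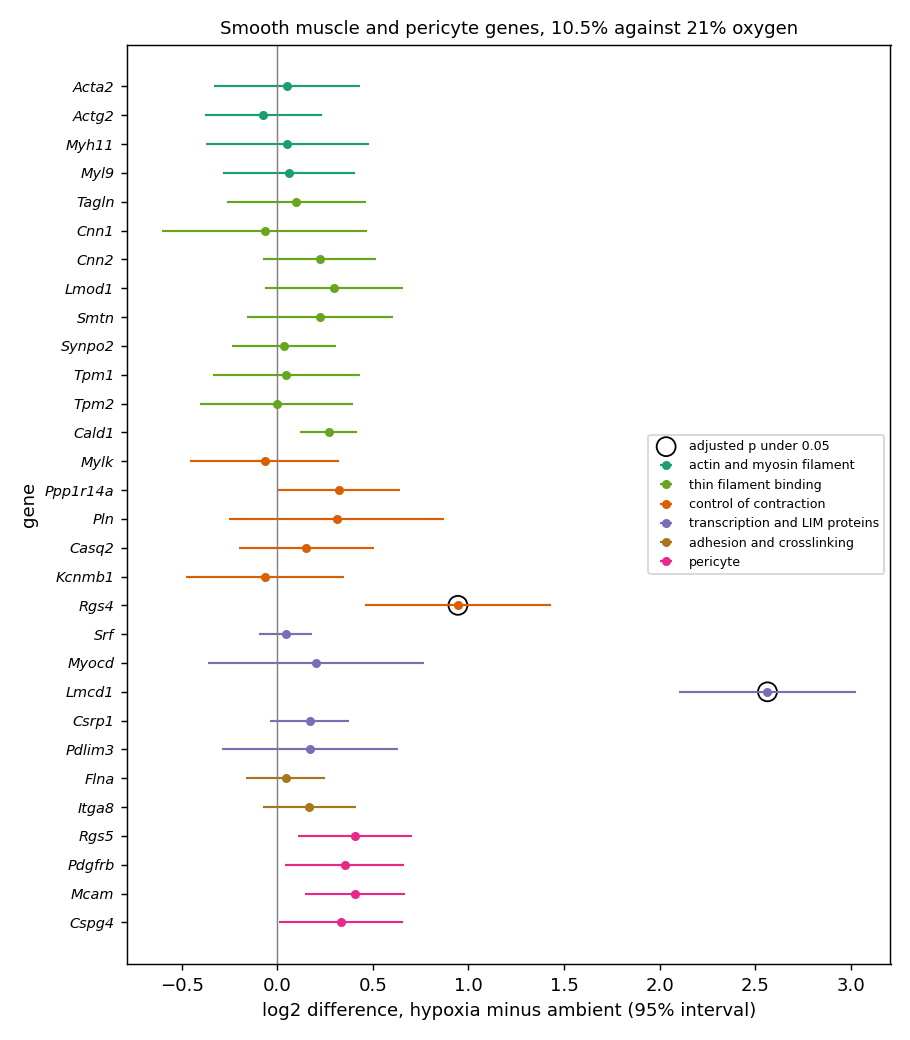
Log2 difference, hypoxia minus ambient, with its 95% interval from limma for the 30 genes that passed the filter, coloured by role. Black rings mark the 2 genes with an adjusted p under 0.05, Lmcd1 at 2.56 and Rgs4 at 0.945, and most other intervals include 0.

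None of the 4 genes of the filaments themselves, smooth muscle actin and myosin, passed the threshold, and their differences lay between -0.07 and 0.06. Acta2, which encodes the smooth muscle alpha-actin of vessels, read 11.56, 11.23 and 11.09 on ambient arrays 1, 2 and 3, and 11.49, 11.54 and 10.99 on hypoxia arrays 1, 2 and 3. The groups overlapped, with the third array lowest in each. Its difference was 0.05 (SE 0.17; 95% interval -0.33 to 0.43; limma adjusted p = 0.879). Actg2, the gamma-actin of visceral smooth muscle, read 13.51, 13.2 and 13.1 in ambient and 13.3, 13.35 and 12.93 in hypoxia. Hypoxia replicate 3 was again the lowest array, and the difference was -0.07 (SE 0.13). Myh11, the smooth muscle myosin heavy chain and the most specific marker of the lineage, read 12.08, 11.81 and 11.69 in ambient and 12.08, 12.19 and 11.46 in hypoxia. The groups overlapped here too, and its 95% interval ran from -0.37 to 0.48 around a difference of 0.05. A second Myh11 probe set differed by -0.005. Myl9, the regulatory light chain whose phosphorylation starts contraction, differed by 0.06 (95% interval -0.28 to 0.40). Myl6, the essential light chain, had no probe set of its own on the array.

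None of the 9 genes whose products bind thin filaments passed the threshold, and Cald1 came nearest to it. Tagln, an actin-binding protein and an early marker of the lineage, read 13.18, 12.94 and 12.67 in ambient and 13.21, 13.17 and 12.72 in hypoxia. The groups overlapped almost wholly, and the difference was 0.10 (SE 0.16). Cnn1, the calponin of smooth muscle, read 11.72, 11.27 and 10.97 in ambient and 11.54, 11.44 and 10.78 in hypoxia. Its arrays spread over nearly the same range in each group, so that its 95% interval, -0.60 to 0.47 around -0.07, was the widest of the 9. Cald1, caldesmon, which restrains myosin on actin, read 11.82, 11.76 and 11.62 in ambient and 12.02, 12.05 and 11.94 in hypoxia. All 3 hypoxia arrays lay above all ambient arrays, and the interval of the difference excluded 0. That difference was 0.27 (SE 0.065; 95% interval 0.12 to 0.42; limma adjusted p = 0.0505). It passed at an adjusted p of 0.0496 with median centring, 0.0452 with a 60% filter, 0.0487 when the trend was fitted robustly and 0.0371 with array weights, while a second Cald1 probe set differed by 0.11 (adjusted p = 0.700). The tropomyosins Tpm1 and Tpm2, which lie along the actin filament, differed by 0.05 and -0.003. Lmod1, which nucleates actin filaments, differed by 0.29 (limma adjusted p = 0.296) and Smtn, smoothelin, by 0.22 (adjusted p = 0.455). Synpo2, an actin-bundling protein, differed by 0.04 at its brightest probe set and by 0.30 at the next (limma adjusted p = 0.179). Cnn2, a calponin that is also made by cells other than muscle, differed by 0.22.

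Among the genes that set the strength of contraction, Rgs4 was higher in hypoxia and the other 5 tested did not pass. Rgs4 encodes a protein that shuts off G protein signals from contraction receptors, and its probe set 1368505_at read 7.622, 7.372 and 7.094 in ambient and 8.726, 8.298 and 7.899 in hypoxia. The lowest hypoxia array lay above the highest ambient array. The difference was 0.945 (SE 0.21; 95% interval 0.46 to 1.43), or 1.93-fold (1.37 to 2.70), with a limma adjusted p of 0.0430. A second Rgs4 probe set differed by 1.05 (adjusted p = 0.0346). The call was lost when any 1 array other than hypoxia replicate 3 was left out (limma adjusted p from 0.0625 to 0.143) and with no variance trend (0.0547), with differences from 0.736 without hypoxia replicate 1 to 1.08 without ambient replicate 1. Ppp1r14a, an inhibitor of myosin phosphatase also called CPI-17, read 7.094, 7.027 and 6.992 in ambient and 7.524, 7.529 and 7.027 in hypoxia. Hypoxia arrays 1 and 2 were high and the third matched ambient replicate 2, and the difference was 0.32 (limma adjusted p = 0.210). Pln, phospholamban, which holds back the calcium pump of the sarcoplasmic reticulum, read 6.663, 5.99 and 5.889 in ambient and 6.922, 6.21 and 6.341 in hypoxia. Replicate 1 was the highest in each group and the groups overlapped, with a difference of 0.31 (95% interval -0.25 to 0.87). Mylk, the light chain kinase, differed by -0.06 (95% interval -0.45 to 0.32). Casq2, the calcium store protein calsequestrin, differed by 0.15, and Kcnmb1, a subunit of the calcium-activated potassium channel, by -0.06. Ppp1r12b, a targeting subunit of myosin phosphatase, lay between 4.49 and 4.75 on all arrays, below the highest bacterial control, and was not tested.

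Of the transcription regulators and LIM domain proteins, only Lmcd1 passed the threshold. Lmcd1 encodes a LIM and cysteine-rich domain protein that acts as a transcription cofactor, and its probe set 1376632_at read 7.645, 6.983 and 6.851 in ambient and 9.75, 9.526 and 9.897 in hypoxia. The groups lay far apart, and hypoxia replicate 3, the lowest of the hypoxia arrays for 26 of the 30 genes, was the highest here. The difference was 2.56 (SE 0.20, 95% interval 2.10 to 3.03), or 5.92-fold (4.30 to 8.15), with a limma adjusted p of 0.00229. The call held in all 17 alternatives, with differences of 2.13 to 2.81. Lmcd1 has only this 1 probe set, so the alternatives that change the choice of probe set could not test its difference. Srf, the factor that binds the CArG box, read 9.781, 9.676 and 9.768 in ambient and 9.777, 9.812 and 9.767 in hypoxia. All 6 arrays lay close together, and the 95% interval of the difference, -0.09 to 0.18 around 0.04, was among the narrowest of the 30. Myocd, myocardin, read 8.308, 7.928 and 7.295 in ambient and 8.338, 7.979 and 7.822 in hypoxia. The groups overlapped, and the interval, -0.36 to 0.77 around 0.20, was wide. Csrp1, a LIM protein of the cytoskeleton, and Pdlim3, which binds actinin, each differed by 0.17 (limma adjusted p = 0.294 and 0.651). For the proteins of adhesion and crosslinking, Flna, filamin A, differed by 0.04 and Itga8, an integrin subunit, by 0.17, and neither passed.

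The 4 pericyte genes were each somewhat higher in hypoxia, by 0.33 to 0.41, and none passed the threshold. Rgs5, a G protein regulator and the usual pericyte marker, read 8.901, 8.498 and 8.908 in ambient and 9.343, 9.146 and 9.038 in hypoxia. Every hypoxia array lay above every ambient array, and the difference was 0.41 (SE 0.13; limma adjusted p = 0.107). Mcam, an adhesion molecule that endothelium also carries, read 8.544, 8.301 and 8.345 in ambient and 8.994, 8.813 and 8.608 in hypoxia. Its groups did not overlap either, and its difference was 0.41 (SE 0.11; limma adjusted p = 0.0762). Mcam passed in 3 of the 17 alternatives, among them array weights (adjusted p = 0.0407) and leaving out hypoxia replicate 3 (0.0425). Its second probe set differed by 0.30 (limma adjusted p = 0.2985). Pdgfrb, the receptor through which pericytes are recruited, read 8.704, 8.611 and 8.567 in ambient and 8.993, 9.258 and 8.688 in hypoxia. Its hypoxia replicate 3 fell within the ambient range, and its difference was 0.35 (limma adjusted p = 0.164). The other Pdgfrb probe sets differed by -0.08 and -0.10, so the direction rested on the brightest. Cspg4, the proteoglycan NG2, read 7.38, 7.11 and 7.092 in ambient and 7.509, 7.785 and 7.284 in hypoxia. The groups overlapped through hypoxia replicate 3, and the difference was 0.33 (limma adjusted p = 0.202). Without hypoxia replicate 3, Pdgfrb (adjusted p = 0.0401), Lmod1 (0.0469) and Ppp1r14a (0.0292) passed along with Mcam.

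**Figure D2:**
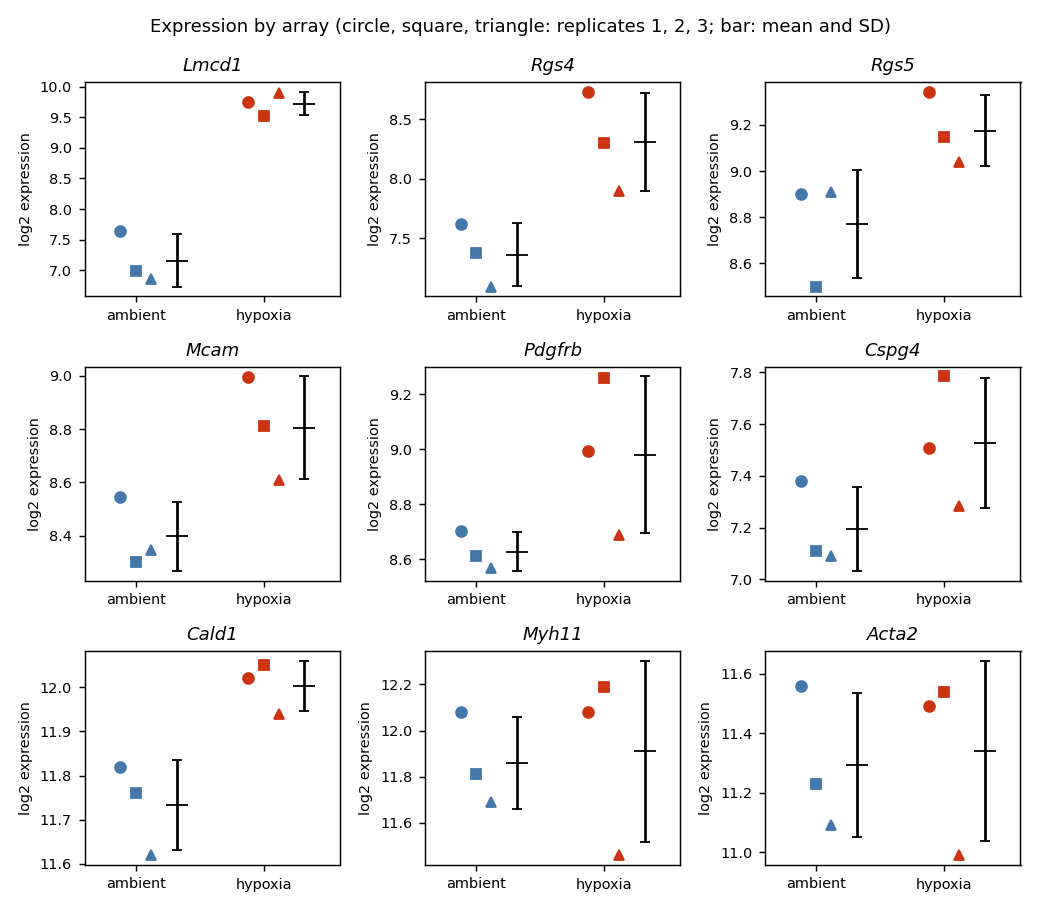
Log2 signal on each of the 6 arrays for 9 genes, with circles, squares and triangles for replicates 1, 2 and 3 and bars for the group mean and SD (n = 3). Lmcd1 and Rgs4 separate the groups, Rgs5, Mcam and Cald1 do so by less, and Myh11 and Acta2 overlap.

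The pericyte genes and the filament genes were set side by side on each array as mean levels relative to the mean of all 6 arrays. The 13 genes of filaments and thin filaments stood at 0.154, -0.081 and -0.213 on ambient arrays 1, 2 and 3, and at 0.172, 0.203 and -0.234 on the hypoxia arrays. The third array was lowest in both groups, and the group means differed by 0.09. The 4 pericyte genes stood at -0.052, -0.304 and -0.206 in ambient and at 0.276, 0.316 and -0.030 in hypoxia. Every hypoxia array lay above every ambient array, with a group difference of 0.37. The gap was narrow, -0.030 on hypoxia replicate 3 against -0.052 on ambient replicate 1. This level used the brightest Pdgfrb probe set, while its other probe sets differed by -0.08 and -0.10. Single probe sets separated upward in 15.8% of the array. The transcription and LIM genes, with Lmcd1 among them, separated too, at -0.037 or lower in ambient and 0.178 or higher in hypoxia. Pericyte minus filament level was -0.205, -0.223 and 0.006 in ambient and 0.104, 0.114 and 0.205 in hypoxia. The 2 groups did not overlap on this measure, which describes chosen genes and was given no test.

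**Figure D3:**
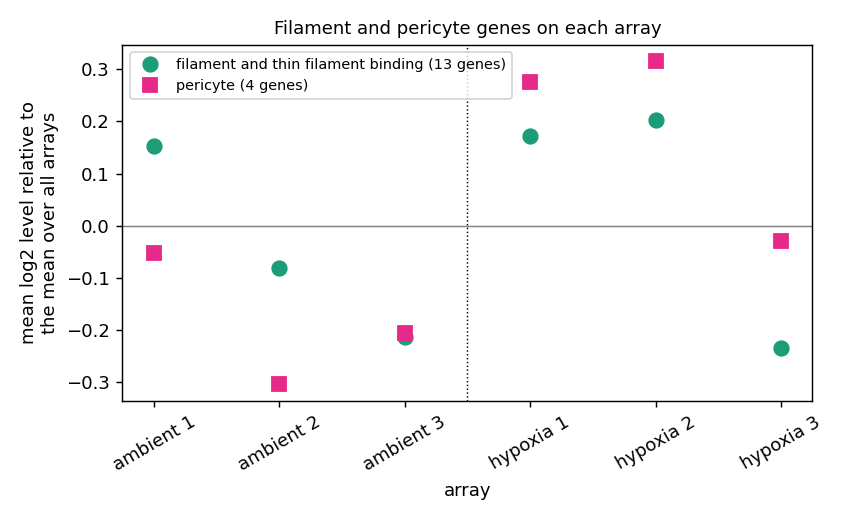
Mean log2 level relative to the 6-array mean on each array, for the 13 filament and thin-filament genes and for the 4 pericyte genes, with ambient arrays on the left and hypoxia arrays on the right. The filament genes cover nearly the same range in both groups, while the pericyte genes are higher on the hypoxia arrays, narrowly on replicate 3.

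Markers of other cells moved with the groups as well. Summed levels are log2 of the added linear signals of every list gene on the array, tested or not. The brightest genes weigh most in them. For endothelium, 3 of 7 tested markers were higher (Vwf by 1.196, Tie1 by 0.69, Tek by 0.48) and 0 lower, and their summed level lay at 12.66 to 12.74 in ambient and 12.88 to 12.99 in hypoxia. The calls of Vwf and Tie1 held in all 17 alternatives and that of Tek in 10. For trophoblast, 5 of 8 were higher, among them Plac1, Krt7, Krt8 and Prl5a1, with sums of 11.29 to 12.63 and 13.53 to 14.01. For red cells, 4 of 5 were higher (Hbb, Alas2, Ahsp and Gypc), with sums of 12.88 to 13.34 and 14.14 to 14.46. In the other direction, 3 of 7 natural killer cell markers (Cst7, Nkg7, Il2rb), 3 of 4 epithelial markers (Epcam, Spint2, Cdh1) and 1 of 7 macrophage markers (Cd163) were lower. Over all probe sets, 4.02% were called higher and 1.97% lower. Sums ran from 15.45 to 15.64 in ambient and 15.16 to 15.31 in hypoxia for natural killer cells, 11.13 to 11.34 and 10.70 to 10.94 for epithelium, and 11.93 to 12 and 11.75 to 11.86 for macrophages. Of 17 alternatives, the calls of Krt7, Hbb and Alas2 held in all, Krt8, Cst7 and Nkg7 in 16, and Gypc and Il2rb in 13. Those of Prl5a1 held in 12, Epcam in 10 and Spint2 in 9. Of the 16 that tested them, Plac1, Ahsp and Cd163 held in all and Cdh1 in 8. The 8 fibroblast and stroma markers had 0 calls, with sums of 16.42 to 16.53 and 16.46 to 16.56. The smallest p among them belonged to Pdgfra (-0.24) and Postn (0.23). The wider pericyte marker list, with Abcc9 (0.42) and Kcnj8 (0.16), channel subunits of these cells, beside the 4 genes above, had 0 calls in 6, all with differences above 0, and sums of 10.71 to 10.91 and 10.94 to 11.29. The smooth muscle markers had 0 calls in 8, with sums of 15.10 to 15.47 and 15.08 to 15.49. The part of the other cell types in the differences of Lmcd1, Rgs4 and the pericyte genes was not tested. Of 10 striated muscle markers 3 were tested, none passed, and Ckm, Myl1, Actn2, Myh7 and Myl11 had means below the highest bacterial control. The tested ones, Acta1, Myh1 and Tnnt2, had ambient means of 12.35, 11.05 and 7.46. Summed levels of all 10 ran from 12.82 to 13.05 in ambient and 12.33 to 12.89 in hypoxia.

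Within each oxygen group, most of the genes varied together from array to array. Each gene's deviation from the mean of its own group was taken on every array. On ambient replicate 1, 29 of the 30 genes lay above their group mean, by a median of 0.232, and on ambient replicate 3 only 4 did, with a median of -0.142. On hypoxia replicate 3, 2 of 30 lay above it, with a median of -0.268, against 26 on hypoxia replicate 1 and 25 on hypoxia replicate 2. Over all probe sets, 44.0% lay above on ambient replicate 1 and 48.3% on hypoxia replicate 3. Ambient replicate 1 was the highest ambient array for 28 of the 30 genes, against 30.1% of all probe sets. Hypoxia replicate 3 was the lowest hypoxia array for 26, against 35.6% of all.

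The first principal component of the deviations held 76.1% of their variance over the 30 genes and 79.1% over the 28 without Lmcd1 and Rgs4, against 33.9% over all probe sets. Its array scores over the 30 genes were 0.526, -0.124 and -0.402 in ambient and 0.393, 0.200 and -0.593 in hypoxia. Over all probe sets the scores were 0.244, 0.034 and -0.279 in ambient and -0.202, 0.734 and -0.532 in hypoxia, so that ambient arrays 1 and 3 and hypoxia arrays 2 and 3 had the same signs in both. The part of this array-wide variation in the pattern of the 30 genes was not tested. The first component over the 30 genes, drawn from these same genes, held 99.6% of the within-group variance of Mylk and Csrp1. It held 99.1% of that of Cnn1, 98.8% for Tpm1, 96.4% for Tagln and 95.4% for Acta2. These are genes of the kinase, LIM, thin-filament and actin roles. The same component held far less for Srf (12.4%), Lmcd1 (16.8%), Casq2 (17.0%) and Rgs5 (22.6%), which did not follow the shared pattern closely. Cnn2 ran the opposite way, at 10.44, 10.69 and 10.96 in ambient and 10.78, 10.97 and 11 in hypoxia. The median within-group SD was 0.242 over the 30 genes and 0.112 over all probe sets. Each interval given above rests on a limma variance that combines the spread of its own gene with that of all kept probe sets. The within-group SD of the gene itself was below the median of all probe sets for Srf (0.044) and Cald1 (0.082). These shares describe 6 arrays, with 4 degrees of freedom left after group means were removed.

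**Figure D4:**
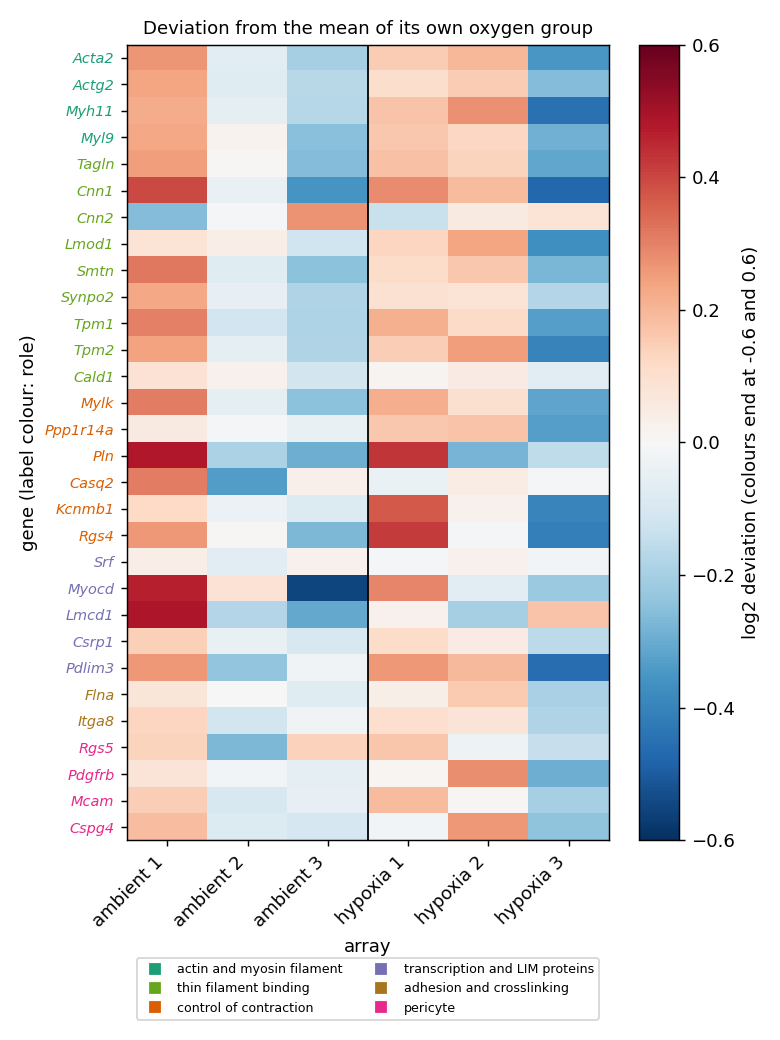
Deviation of each of the 30 genes from the mean of its own oxygen group on each array, in log2 units, with colours ending at -0.6 and 0.6 and gene names coloured by role. Ambient replicate 1 is above the group mean for 29 genes and hypoxia replicate 3 below it for 28, while Cnn2 runs the opposite way.

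Other markers varied between the same arrays. All 3 tested striated muscle markers lay above their group mean on ambient replicate 1 and 0 of 3 on hypoxia replicate 3. The other 7 of the 10 listed did not pass the filter, so these 3 do not establish striated muscle cells. Acta1 is an actin, as are Acta2 and Actg2, and signal shared between their probe sets was not tested. Red cell markers lay above it in 5 of 5 on ambient replicate 1, 0 of 5 on ambient replicate 3 and 1 of 5 on hypoxia replicate 3. Trophoblast markers were above in 7 of 8 on ambient replicate 1 but also in 7 of 8 on hypoxia replicate 3, and in 0 of 8 on hypoxia replicate 1. Endothelial markers lay above in 5 of 7 on ambient replicate 1, 6 of 7 on hypoxia replicate 1 and 1 of 7 on hypoxia replicate 3, and fibroblast markers in 0 of 8 on ambient replicate 3. Natural killer cell markers ran against the contractile genes, above in 2 of 7 on ambient replicate 1 and 6 of 7 on hypoxia replicate 3. The part of other cell types in the shared pattern was not tested.

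Genes that work beside the contractile set were read from separate lists of its pathways. Among SRF cofactors and regulators, 0 of 13 tested passed in either direction, and the smallest p belonged to Klf5 (-0.26) and Foxo4 (0.29), both transcription factors. Of 32 partners in cytoskeleton and adhesion, 4 were higher and 0 lower, with a median difference of 0.12. They were Sorbs2, an adapter at actin attachments (0.67, limma adjusted p = 0.0320), Parva, a partner of integrin-linked kinase (0.44, 0.0264), Csrp2, a LIM protein (0.43, 0.0358), and Pdlim1, which binds actinin (0.43, 0.0407). In the RhoA and myosin phosphatase list 0 of 13 were higher and 2 lower: Prkca, the alpha form of protein kinase C, at -0.51 (limma adjusted p = 0.0278), and Arhgef1, an activator of RhoA, at -0.30 (0.0412). Receptors that drive contraction were mostly dim, and of 12 on the array 5 were tested and 0 passed, with Tbxa2r at -0.12 and S1pr3 at 0.14. Neither relaxation through nitric oxide and cyclic nucleotides (0 of 7; Ptger2 at -0.39, Npr3 at 0.40) nor calcium handling and channels (0 of 12; Atp2a2 at -0.17, Abcc9 at 0.42) gave a call. Of 16 other pericyte genes, 1 was higher, Ndufa4l2, a mitochondrial protein found in pericytes, by 0.70 (limma adjusted p = 0.0296), with a median of 0.18 over the list. Each of these 7 calls held in 9 to 13 of the 17 alternatives and was lost in the rest.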

How the data were processed

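Biotin-labelled cRNA from total RNA of 6 metrial gland samples was hybridised to a rat expression array, per the labels' protocols. The deposited values are log2 expression, 1 per probe set and array, and that scale was read from the values (2.98 to 14.9). MAS5 and Affymetrix Expression Console are named, per the submitters' processing notes. How background, summary and scaling were done is not given in the sources used. A scaling that equalises arrays hides a change shared by most genes.

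After 57 of 31099 probe sets were left out as controls, the 40% of the rest with the lowest means (below 5.74) were dropped and 18625 kept. Platform symbols were used where a probe set carried a single one (20826). The oxygen groups were compared with limma 3.58.1 under R 4.3.3 (lmFit, eBayes with a mean-variance trend, group as the only term, two-sided, Benjamini-Hochberg over all kept probe sets). The fit was tested on simulated data. Within-group correlations between arrays were 0.989 to 0.993. The number of arrays limits the precision. The 17 alternatives changed scaling, filter, offset, variance model, block, choice of probe set or left out 1 array.

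The genes and lists were chosen with earlier results of these data known. Values on every array were given for genes past the threshold, for the 8 smallest p and for a set of core genes, and from other lists up to 4 genes past the threshold were named, or 2 of smallest p.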

Additional observations from a re-analysis of the deposited data

How the results depend on the processing

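Lmcd1 stayed higher under all 17 alternatives, of which those on the choice of probe set could not test it. The count of genes higher in hypoxia was 2, with 1 under no variance trend, 3 under median centring, the 60% filter and a robust trend, 4 under array weights and 1 to 6 with 1 array left out. It was 4 (Lmcd1, Rgs4, Mcam and Cald1) with the replicate number as a block, which called 1317 probe sets in place of 1116. Over all probe sets, same-numbered arrays correlated at 0.012, 0.071 and 0.070 in their deviations, and not every array correlated best with its own number. These correlations cannot show whether the numbers pair the arrays. Over the 30 genes, first-component scores fell with the number in both groups. They were 0.526, -0.124 and -0.402 in ambient and 0.393, 0.200 and -0.593 in hypoxia. With the block, Rgs4 had a limma adjusted p of 0.00513. None of the 30 genes was called lower under any of the 17. All calls numbered 270 to 1006 with 1 array left out and 807 to 1444 otherwise. Quantile normalization moved the share of all calls that were higher from 67.1% to 55.4%, and changed the direction of none of the 30 genes. The share of the first principal component was 75.9% with quantile normalization, 75.1% with median centring and 75.6% with no filter, against 76.1%.

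Over genes and alternatives, 449 differences kept their direction and side of the threshold, 38 changed sign, 11 passed newly and 6 were lost. Array weights turned Cnn1 (0.012), Kcnmb1 (0.037), Mylk (0.0038) and Tpm2 (0.034), and the second probe set turned Itga8 (-0.097), Myh11 (-0.0048), Pdgfrb (-0.079), Srf (-0.0053), Tpm1 (-0.021) and, from the calcium list, Atp2a2 (0.021). With 1 array left out, differences ran from -0.049 to 0.23 for Acta2, -0.16 to 0.057 for Actg2, -0.018 to 0.30 for Casq2, -0.24 to 0.17 for Cnn1, -0.034 to 0.14 for Flna, -0.11 to 0.13 for Kcnmb1, -0.084 to 0.28 for Myh11, -0.064 to 0.20 for Myl9, -0.19 to 0.094 for Mylk, -0.072 to 0.43 for Myocd, -0.055 to 0.15 for Synpo2, -0.031 to 0.25 for Tagln, -0.059 to 0.21 for Tpm1 and -0.13 to 0.20 for Tpm2. The causes were not tested. Casq2 and Kcnmb1, near the filter on low signals, are the least secure levels.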

Other observations

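Probe sets shared between genes were not counted with the 30. The probe set annotated to Myl6, Myl6b and Myl6l read 13.59 ± 0.01 in ambient and 13.58 ± 0.04 in hypoxia (SD, n = 3 each), a difference of -0.01 (95% interval -0.10 to 0.08). It is the only probe set here for the essential light chain of smooth muscle myosin, and the narrow interval covers the related light chains with it. The 5 probe sets annotated to both Acta2 and Actc1, the cardiac actin, differed by -0.06, -0.26, -0.08, -0.13 and -0.31, and none passed the threshold (limma adjusted p = 0.739, 0.0927, 0.669, 0.550 and 0.120; the values 0.669 and 0.550 come from a fit without the filter on low signals). The probe set of Acta2 alone differed by 0.05. On the shared probe set with the largest difference, values were 7.805, 7.742 and 7.685 in ambient and 7.471, 7.252 and 7.594 in hypoxia. All 3 hypoxia arrays lay below the ambient arrays there, as they did for 14.1% of all kept probe sets, while those of Acta2 alone overlapped.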
